A study of Mus musculus with 24 samples.

Results

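Classical non-homologous end joining is described here through 10 genes: Xrcc5, Xrcc6, Prkdc, Dclre1c, Trp53bp1, Poll, Polm, Lig4, Xrcc4 and Nhej1. They were picked by gene symbol, as core factors of the route, from the 27368 genes of the count table, and all 10 were among the 16560 genes tested. RNA was measured in whole tumours that grew under the skin of female C3H mice, 6 to 8 weeks old, after injection of about 1000000 SCC7 cells, a mouse squamous cell carcinoma line. The OE cells overexpressed the microRNA miR-21-5p and the NC cells carried an empty vector. Irradiated tumours (IR) received X-rays at 8 Gy per day on 3 days, starting at a tumour volume near 300 cubic millimetres. Olaparib, an inhibitor of the PARP enzymes that act at DNA breaks, was given at 50 mg/kg 2 h before each irradiation, with a further dose the day after. The 8 groups of 3 tumours were OE IR+olaparib, OE IR, OE olaparib, OE sham, NC IR+olaparib, NC IR, NC olaparib and NC sham. The study's question concerned miR-21-5p, resistance to radiation and the alternative form of end joining, and the classical genes are the other end joining route of these tumours.

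Classical end joining rejoins the ends of a DNA double-strand break directly, in any phase of the cell cycle. The Ku ring of Xrcc5 and Xrcc6 products slides onto the ends and recruits the DNA-dependent protein kinase, whose catalytic subunit is the Prkdc product. That kinase activates the nuclease Artemis, encoded by Dclre1c, which opens hairpins and trims ends. Polymerases lambda and mu fill gaps, and ligase IV with XRCC4 and XLF seals the break.

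Groups were read from the letters of each tumour's coded identifier. The written treatment label named another group for 19 of the 24 tumours, with 8 that differed in radiation, 8 in cell line and 16 in olaparib, and a separate cell type label called all 24 tumours OE. Libraries held 37099055 to 40004502 counted reads. Cdkn1a, induced by p53 and coding for the cell cycle inhibitor p21, lay at 332, 727 and 765 reads per 1000000 counted reads (CPM; lowest, median and highest of 12) in irradiated tumours and at 184, 281 and 342 CPM in unirradiated ones. The lowest irradiated value belonged to NC IR replicate 1, which also had Mki67, a proliferation marker, at 380 CPM, within the unirradiated range of 365 to 459 CPM. In these 2 genes that library goes against its code. Its written label, NC IR+olaparib, names radiation as well. Its sum over 20 p53 target genes, 2060 CPM, was the lowest of irradiated tumours but above the unirradiated range of 1050 to 1930 CPM. Results that rest on this library are given with and without it. OE IR+olaparib replicate 3 stood apart too, with 3.51% of its reads from the collagen gene Col3a1 and fibroblast markers summing to 105000 CPM, against 2730 to 7880 CPM across NC tumours. NC IR replicate 3 carried the most skeletal muscle RNA, at 20200 CPM summed over 14 markers. Of 17 keratinocyte and squamous markers, Krt5, Krt14, Trp63 and Dsg3 had medians of 0.682, 0.929, 0.336 and 0 CPM, while the simple keratins Krt8 and Krt18 had 477 and 279 CPM. Itgb4, Itga6 and Sox2 of the same list had medians of 285, 140 and 26.9 CPM. The basal keratins Krt5 and Krt14 were thus near 0 in most tumours, while the integrins of basal cells were not. In bulk tissue, fewer cells of a type and less RNA per cell cannot be told apart, and this holds for every gene below. Nothing in the labels says more of the replicates than that they are separate tumours of a group, and p-values measure the spread between them.

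All 10 genes were read in every tumour, with raw counts between 123 (Nhej1) and 3545 (Trp53bp1). Per kilobase of annotated exon, the median level across the 24 tumours was highest for the Ku genes, at 17.5 CPM per kb for Xrcc5 and 12.7 for Xrcc6. The gap-filling polymerases followed, with Polm at 7.08 and Poll at 5.62 CPM per kb. Trp53bp1 stood at 4.57, Nhej1 at 3.61 and Xrcc4 at 3.36 CPM per kb. The lowest 3 were Dclre1c at 2.60, Lig4 at 2.47 and Prkdc at 2.38 CPM per kb. The ranges of neighbours in this order overlapped: Xrcc5 ran from 4.12 to 24.8 and Xrcc6 from 3.34 to 19.6 CPM per kb over the tumours. The highest tumour exceeded the lowest 6.02 times for Xrcc5, 5.86 times for Xrcc6, 4.25 times for Lig4 and 3.05 times for Dclre1c. For the other 6 genes that ratio was 2.21 to 2.47. Within a group of 3 tumours, the coefficient of variation had a median between 8.1% for Xrcc4 and 18.2% for Prkdc, and it reached 62.2% for Xrcc5 in OE IR+olaparib tumours.

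**Figure D1:**
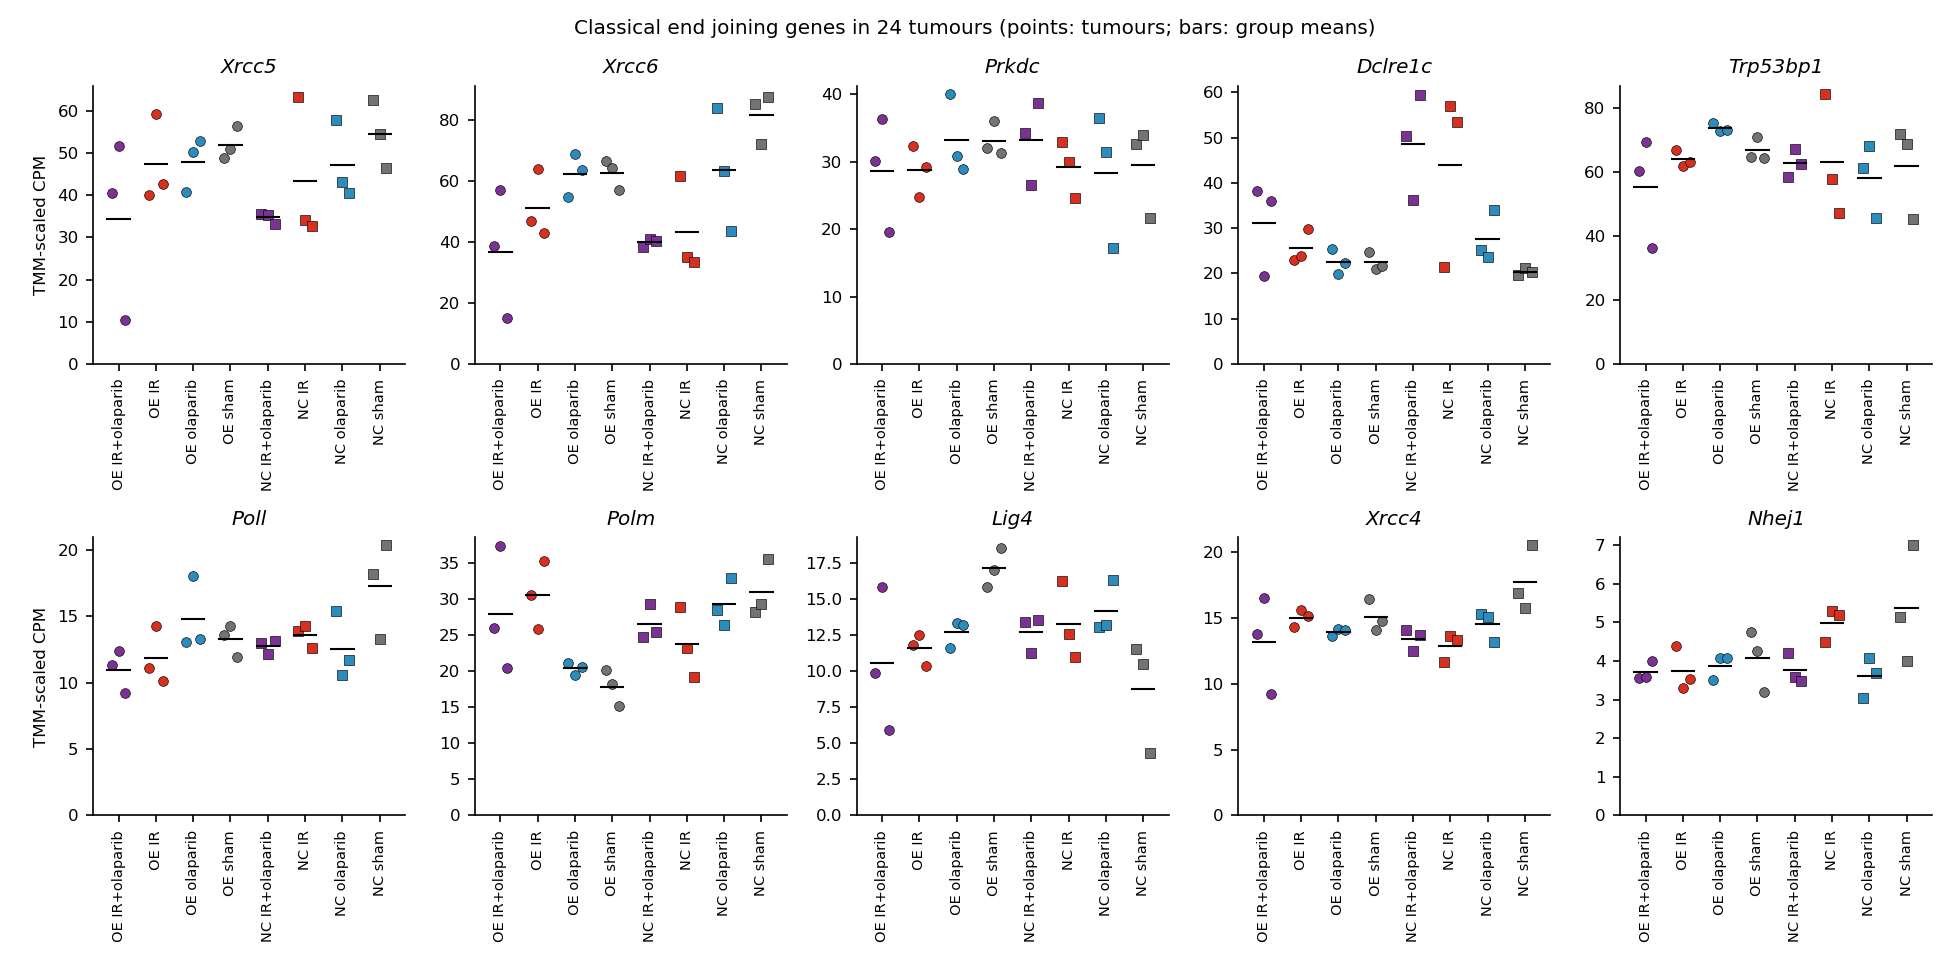
TMM-scaled CPM (y axis, linear, from 0) of the 10 genes in each of 24 tumours, by group (x axis), with circles for OE, squares for NC and a bar at each group mean. Xrcc6 is lower and Dclre1c higher in most irradiated groups, with 1 NC IR tumour at 61.6 CPM of Xrcc6 and 21.4 CPM of Dclre1c among the unirradiated values.

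After radiation, Artemis transcripts were higher and Ku70 transcripts lower. In the average over OE and NC tumours, with olaparib and without, 1 of the 10 genes rose (Dclre1c), 1 fell (Xrcc6) and 8 did not pass the test (edgeR quasi-likelihood test, Benjamini-Hochberg adjusted over all genes). This stands beside 39.1% of all tested genes called in the same comparison, with 3586 higher and 2897 lower. The median log2 fold change of the 10 was -0.09, beside 0.04 over all tested genes. DESeq2 called the same pair, Dclre1c and Xrcc6, among 7059 genes. With groups taken from the written label, neither was called (Dclre1c 0.45, adjusted p = 0.0591; Xrcc6 -0.41, adjusted p = 0.121), and 1 gene was called in the whole table. The 16 tumours whose labels agree on radiation were fitted with additive terms for radiation, cell line and olaparib, not as an average over strata. There both were called, at 0.71 for Dclre1c (edgeR adjusted p = 0.0146) and -0.87 for Xrcc6 (adjusted p = 0.00807).

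The Ku genes encode the break sensor. Xrcc6 (Entrez 14375, chr15:81987833-82040085, + strand, mm10) encodes Ku70. Its level was 38.6, 56.9 and 14.9 CPM in OE IR+olaparib tumours and 47.0, 64.0 and 42.9 CPM in OE IR tumours, against 54.7, 68.9 and 63.8 CPM in OE olaparib and 66.5, 64.1 and 57.1 CPM in OE sham tumours. In NC IR+olaparib tumours it was 38.5, 41.1 and 40.3 CPM and in NC IR tumours 61.6, 35.1 and 33.6 CPM, against 83.9, 63.4 and 43.6 CPM in NC olaparib and 85.2, 72.1 and 87.6 CPM in NC sham tumours. Of 12 irradiated tumours, 8 lay below every unirradiated one and none lay above the unirradiated median of 65.3 CPM. The mean was 42.9 ± 13.4 CPM in irradiated and 67.6 ± 13.1 CPM in unirradiated tumours (SD, n = 12 each), and the log2 fold change was -0.66 ± 0.17 (SE, edgeR adjusted p = 0.00557). It was below 0 in 4 of 4 strata, from -0.91 in NC tumours without olaparib to -0.29 in OE tumours without it, and no stratum passed alone. Without OE IR+olaparib replicate 3 the average was -0.58 (adjusted p = 0.0018), and without NC IR replicate 1 it was -0.75 (adjusted p = 0.00152). The stratum of NC tumours without olaparib passed when NC IR replicate 1 was left out, at -1.27 (adjusted p = 0.0214), or OE IR+olaparib replicate 3, at -0.93 (adjusted p = 0.0127). The stratum of OE tumours under olaparib passed without OE IR+olaparib replicate 2, at -1.23 (adjusted p = 0.0227). Without OE IR+olaparib replicate 3, NC IR replicate 3 and NC sham replicate 3 together, the average was -0.52 (adjusted p = 0.00641).

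Xrcc5 (Entrez 22596, chr1:72307417-72394953, + strand) encodes Ku80, the partner subunit. Its lowest, median and highest levels were 10.5, 37.8 and 63.3 CPM in irradiated and 40.5, 50.6 and 62.7 CPM in unirradiated tumours. The lower ends separate more than the upper ends. Of 12 irradiated tumours, 7 were under the whole unirradiated range and 1, NC IR replicate 1 at 63.3 CPM, was over it. The log2 fold change was -0.35 ± 0.18 and missed the threshold (adjusted p = 0.136, 95% interval -0.73 to 0.03). It passed on leaving out NC IR replicate 1 (-0.45, adjusted p = 0.0486) or OE IR+olaparib replicate 2 (-0.45, adjusted p = 0.047).

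Within a tumour the ratio of Xrcc6 to Xrcc5 reads was 0.95, 1.08 and 1.42 (lowest, median, highest) in irradiated and 1.01, 1.35 and 1.89 in unirradiated tumours. All 3 NC IR tumours lay between 0.974 and 1.03, NC IR replicate 1 included, and the NC sham tumours had 1.36, 1.32 and 1.89. The irradiated and unirradiated ranges overlap, the NC IR and NC sham ranges do not, and the ratio is given without a test. Genes whose levels most resembled Xrcc6 over the 24 tumours, by the root mean square difference of centred log2 CPM, were Snu13 (0.125), Myg1 (0.127) and Alyref (0.148), among 12527 compared. For Xrcc5 they were Nudcd1 (0.164), Mybbp1a (0.173) and Trp53 (0.178). The Ku genes' own spread on that scale was 0.54 for Xrcc6 and 0.50 for Xrcc5.

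**Figure D2:**
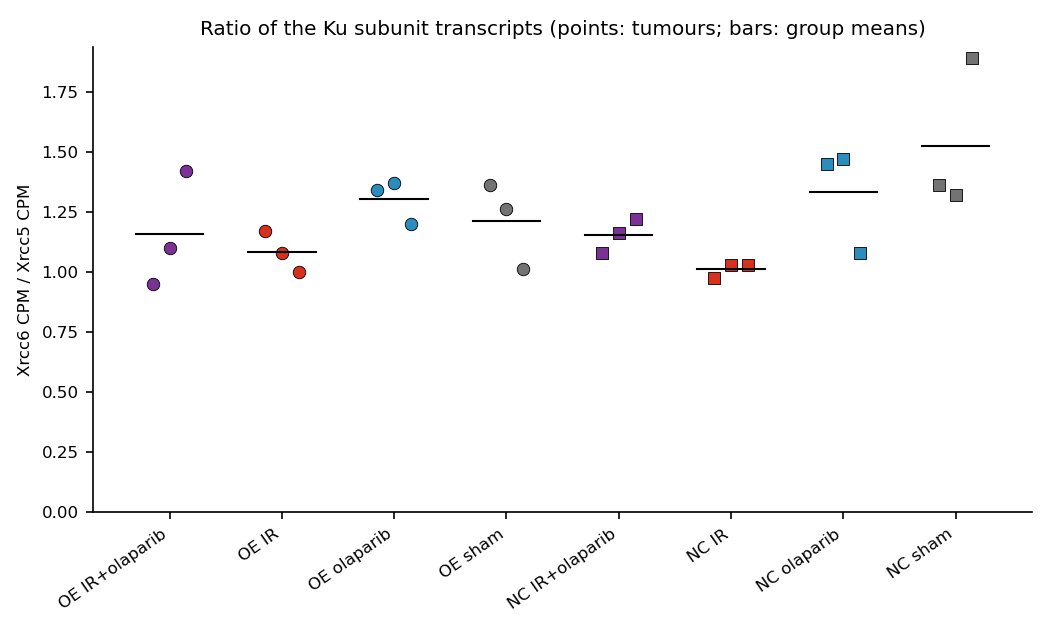
Ratio of Xrcc6 CPM to Xrcc5 CPM (y axis, linear, from 0) in each of 24 tumours, by group (x axis), with circles for OE, squares for NC and a bar at each group mean. The 12 irradiated tumours have a median of 1.08 and the 12 unirradiated tumours 1.35.

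Proliferation markers fell as well after radiation. Summed over 15 genes they were 139, 1380 and 2770 CPM (lowest, median, highest) in irradiated and 2370, 2700 and 3210 CPM in unirradiated tumours. Of the 15 genes 14 fell, beside 2897 of all 16560 tested genes. OE IR+olaparib replicate 3 had the least of both, at 139 CPM of the markers and 14.9 CPM of Xrcc6. That is also the library with fibroblast markers at 105000 CPM. NC IR replicate 1, at 2770 CPM of the markers, had 61.6 CPM of Xrcc6. The part of dividing cells in the Xrcc6 result was not tested.

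Dclre1c (Entrez 227525, chr2:3424061-3474211, + strand) encodes Artemis and was the 1 member that rose. It stood at 38.1, 19.5 and 35.9 CPM in OE IR+olaparib and 23.0, 23.8 and 29.8 CPM in OE IR tumours, against 25.4, 20.0 and 22.2 CPM in OE olaparib and 24.7, 21.0 and 21.7 CPM in OE sham tumours. In NC tumours the levels were 50.3, 36.2 and 59.4 CPM with IR+olaparib and 21.4, 57.0 and 53.4 CPM with IR, against 25.1, 23.7 and 34.0 CPM with olaparib and 19.8, 21.3 and 20.2 CPM in sham. The highest 7 irradiated tumours exceeded the whole unirradiated range, and NC IR replicate 1 sat at the sham level. The means were 37.3 ± 14.5 CPM in irradiated and 23.3 ± 3.93 CPM in unirradiated tumours (SD, n = 12 each), and the log2 fold change was 0.64 ± 0.15 (edgeR adjusted p = 0.00277). The difference was above 0 in 4 of 4 strata. It was 0.72 (adjusted p = 9.38e-05) without NC IR replicate 1 and 0.56 (adjusted p = 0.0108) without the 3 libraries OE IR+olaparib replicate 3, NC IR replicate 3 and NC sham replicate 3.

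By stratum, Dclre1c passed in NC tumours without olaparib, at 1.11 ± 0.29 (adjusted p = 0.0303), where 10.0% of all genes passed and no other member did. That call ended when NC IR replicate 2 or 3, or NC sham replicate 1 or 3, was left out. It also ended, at 0.93 (adjusted p = 0.175), without those 3 libraries together. Without NC IR replicate 1 it was 1.41 (adjusted p = 0.00136), and the stratum of NC tumours under olaparib then passed too, at 0.80 (adjusted p = 0.0326). The other strata gave 0.82 ± 0.29 in NC under olaparib (adjusted p = 0.123), 0.47 ± 0.29 in OE under olaparib (adjusted p = 0.292) and 0.18 ± 0.29 in OE without it (adjusted p = 0.845). Set against each other (OE effect minus NC effect, both olaparib settings), the cell lines differed by -0.64 ± 0.29. The edgeR adjusted p was 0.416, so they were not shown to differ. Without NC IR replicate 1 that difference was -0.78 and did not pass either (edgeR adjusted p = 0.127).

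Macrophage and monocyte markers also had a higher median in irradiated tumours. Summed over 12 genes they were 3380, 14500 and 23000 CPM (lowest, median, highest) in irradiated and 5320, 7250 and 12100 CPM in unirradiated tumours. Of the 12 genes 7 rose, beside 3586 of all 16560 tested genes, and no marker was at 0 in every tumour. The 3 tumours with the most of these markers, NC IR replicate 2 (23000 CPM), NC IR replicate 3 (22700 CPM) and NC IR+olaparib replicate 3 (21600 CPM), were also the 3 with the most Dclre1c, at 57.0, 53.4 and 59.4 CPM. The irradiated tumours with the least of both were NC IR replicate 1 (3380 CPM of markers, 21.4 CPM of Dclre1c) and OE IR+olaparib replicate 2 (8390 CPM of markers, 19.5 CPM of Dclre1c). NC IR+olaparib replicates 1 and 2 had 16200 and 14200 CPM of markers, with 50.3 and 36.2 CPM of Dclre1c. OE IR+olaparib replicates 1 and 3 had 16200 and 13700 CPM of markers, with 38.1 and 35.9 CPM of Dclre1c. These tumours lay above every unirradiated tumour in both. Some tumours did not pair the 2. NC olaparib replicate 3 had the lowest unirradiated marker sum (5320 CPM) and the most Dclre1c of the unirradiated tumours (34.0 CPM). NC sham replicate 3 had the highest unirradiated marker sum (12100 CPM) and 20.2 CPM of Dclre1c. OE IR replicates 1, 2 and 3 had 14900, 12300 and 12800 CPM of markers, with 23.0, 23.8 and 29.8 CPM of Dclre1c. The part of these cells in the Dclre1c result was not tested. Dclre1c shares 3.83% of its exon bases with Suv39h2, a histone methyltransferase gene on the other strand, and Xrcc6 shares 7.69% with Desi1. The strand setting of the counting is not given in the sources used here, so reads in those stretches cannot be assigned. Suv39h2 fell by 0.85 on the log2 scale after radiation (edgeR adjusted p = 0.00976), opposite to Dclre1c, and Desi1 changed by -0.25 (adjusted p = 0.06). The genes most like Dclre1c across the tumours were Inpp4a (0.169), Rbm47 (0.185) and Pitpnc1 (0.193), against its own spread of 0.51.

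The promoters of the called pair are shown because the genes moved in opposite directions. Both come from RefSeq (GRCm38.p6) and run from 250 bases before to 50 bases after the start. Capitals mark CCAAT boxes (CCAAT, or ATTGG on the other strand), GC boxes (GGGCGG or CCGCCC) and, in Xrcc6, an E2F-like match.
Xrcc6, chr15:82016119-82016418, + strand: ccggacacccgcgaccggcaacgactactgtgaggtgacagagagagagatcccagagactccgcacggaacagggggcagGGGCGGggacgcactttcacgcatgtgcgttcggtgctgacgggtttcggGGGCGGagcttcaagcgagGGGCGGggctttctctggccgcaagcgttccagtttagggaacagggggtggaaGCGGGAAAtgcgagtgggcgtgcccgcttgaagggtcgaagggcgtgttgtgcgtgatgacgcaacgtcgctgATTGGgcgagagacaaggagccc
Dclre1c, chr2:3423881-3424180, + strand: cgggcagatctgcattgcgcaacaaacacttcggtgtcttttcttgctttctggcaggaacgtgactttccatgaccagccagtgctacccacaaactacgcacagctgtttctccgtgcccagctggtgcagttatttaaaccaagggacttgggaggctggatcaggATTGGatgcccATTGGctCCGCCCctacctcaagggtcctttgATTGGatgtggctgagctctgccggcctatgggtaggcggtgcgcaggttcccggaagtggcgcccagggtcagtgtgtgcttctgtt
The Xrcc6 window holds 3 GC boxes, 1 CCAAT box and GCGGGAAA, the other strand of the E2F-like TTTCCCGC, starting 46 bases before the RefSeq start. That start lies inside the Xrcc6 span given above, which begins further upstream. Dclre1c holds 3 CCAAT boxes and 1 GC box. Both strands were searched, and the marked matches do not overlap. Of 32851 promoters of this length, 2.26% held an E2F-like match (TTTGGCGC, TTTCCCGC, TTTGCCGC or TTTCGCGC), 37.4% a CCAAT box and 35.7% a GC box. Promoter sequence was at hand for 8 of the 10 genes, and Xrcc6 was the 1 gene of these with an E2F-like match. The p53 half-site, by its name alone, was found in none of the 8 genes' windows and in 8.36% of all promoters. A match describes the letters and says nothing of binding.

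Prkdc (Entrez 19090, chr16:15637444-15842239, + strand), the catalytic kinase subunit, did not pass the test. Its lowest, median and highest levels were 19.6, 30.1 and 38.7 CPM in irradiated and 17.2, 31.8 and 40.1 CPM in unirradiated tumours, which overlap almost fully. The log2 fold change was -0.05 ± 0.13 (adjusted p = 0.773), with a 95% interval of -0.32 to 0.22. Trp53bp1 (Entrez 27223, chr2:121194835-121296354, - strand) encodes 53BP1, a chromatin reader that shields ends from resection and so favours end joining. It lay at 36.4, 62.3 and 84.5 CPM in irradiated and 45.2, 68.4 and 75.4 CPM in unirradiated tumours. Its log2 fold change was -0.08 ± 0.11 (adjusted p = 0.573, 95% interval -0.32 to 0.15). Of its exon bases 15.0% overlap Tubgcp4 on the other strand, which fell by 0.24 (adjusted p = 0.0296).

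Neither gap-filling polymerase passed on average, and their estimates had opposite signs. Poll (Entrez 56626, chr19:45552275-45560564, - strand), for polymerase lambda, had 9.22, 12.5 and 14.3 CPM in irradiated and 10.6, 13.4 and 20.4 CPM in unirradiated tumours. Its log2 fold change of -0.23 ± 0.10 missed the threshold (adjusted p = 0.0661), though it passed in 5 of the 24 fits that each left out 1 tumour. Polm (Entrez 54125, chr11:5827860-5838832, - strand), for polymerase mu, had 19.2, 25.9 and 37.4 CPM in irradiated and 15.1, 23.8 and 35.5 CPM in unirradiated tumours, a log2 fold change of 0.18 ± 0.10 (adjusted p = 0.158). It passed without the 3 libraries OE IR+olaparib replicate 3, NC IR replicate 3 and NC sham replicate 3 (0.27, adjusted p = 0.0214).

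In OE cells Polm was 25.9, 37.4 and 20.4 CPM with IR+olaparib and 30.5, 25.8 and 35.2 CPM with IR, against 21.2, 19.5 and 20.6 CPM with olaparib and 20.1, 18.1 and 15.1 CPM in sham. In NC cells it was 24.7, 29.3 and 25.3 CPM with IR+olaparib and 28.9, 23.2 and 19.2 CPM with IR, against 28.4, 26.4 and 32.9 CPM with olaparib and 28.2, 29.3 and 35.5 CPM in sham. Every OE IR tumour lay above every OE sham tumour, while the NC IR and NC sham tumours overlapped. The radiation effect without olaparib was 0.78 ± 0.20 in OE (adjusted p = 0.0871) and -0.38 ± 0.20 in NC (adjusted p = 0.196). The OE value passed in edgeR without NC IR replicate 1 (adjusted p = 0.0422), without OE IR+olaparib replicate 3 (adjusted p = 0.0271), without the 3 libraries together (adjusted p = 0.0145) and in a fit of only the 2 groups (adjusted p = 0.0251), at 0.76 to 0.78. It passed in DESeq2 as well (0.80, adjusted p = 0.0078). The effect in OE minus that in NC, over both olaparib settings, was 0.88 ± 0.20, with an unadjusted p of 0.00025 in edgeR and an adjusted p of 0.155. DESeq2 called it (0.89, adjusted p = 0.00479), and so did edgeR without OE IR+olaparib replicate 3 (0.99, adjusted p = 0.00948) or without the 3 libraries above (0.85, adjusted p = 0.028). In this interaction 0 of the 10 members passed edgeR, with 2 at an unadjusted p below 0.05 and 1 by DESeq2, beside 0.00604% of all genes called by edgeR. Over all 16560 genes, 1882 had an unadjusted p below 0.05 and DESeq2 called 236. Without NC IR replicate 1 the interaction was 0.98 and did not pass (edgeR adjusted p = 0.0639). With groups from the written label the interaction was 0.079 (edgeR adjusted p = 0.967). Polm's call thus changed with the tool and with 1 library, and its estimate changed with the label used. The genes most like Polm across the tumours were Triobp (0.173), Ripk3 (0.207) and Arl6ip5 (0.211), against its own spread of 0.33.

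None of the 3 ligation genes passed on average. Lig4 (Entrez 319583, chr8:9970020-9977680, - strand) encodes ligase IV, which joins the ends. It stood at 5.92, 12.2 and 16.3 CPM in irradiated and 4.37, 13.2 and 18.6 CPM in unirradiated tumours, with a log2 fold change of -0.10 ± 0.15 (adjusted p = 0.631). Xrcc4 (Entrez 108138, chr13:89848914-90089608, - strand), for the partner that stabilises ligase IV, had 9.22, 13.8 and 16.5 CPM in irradiated and 13.2, 15.0 and 20.6 CPM in unirradiated tumours. Its log2 fold change was -0.17 ± 0.08 (adjusted p = 0.119) and lay below 0 in 4 of 4 strata. In NC tumours without olaparib it was -0.46 ± 0.17 by edgeR (adjusted p = 0.078), and DESeq2 called that stratum (adjusted p = 0.0355). Nhej1 (Entrez 75570, chr1:74967346-75125226, - strand), for the scaffold XLF, had the fewest reads, with 3.30, 3.79 and 5.28 CPM in irradiated and 3.05, 4.07 and 7.00 CPM in unirradiated tumours (-0.06 ± 0.11, adjusted p = 0.713).

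**Figure D3:**
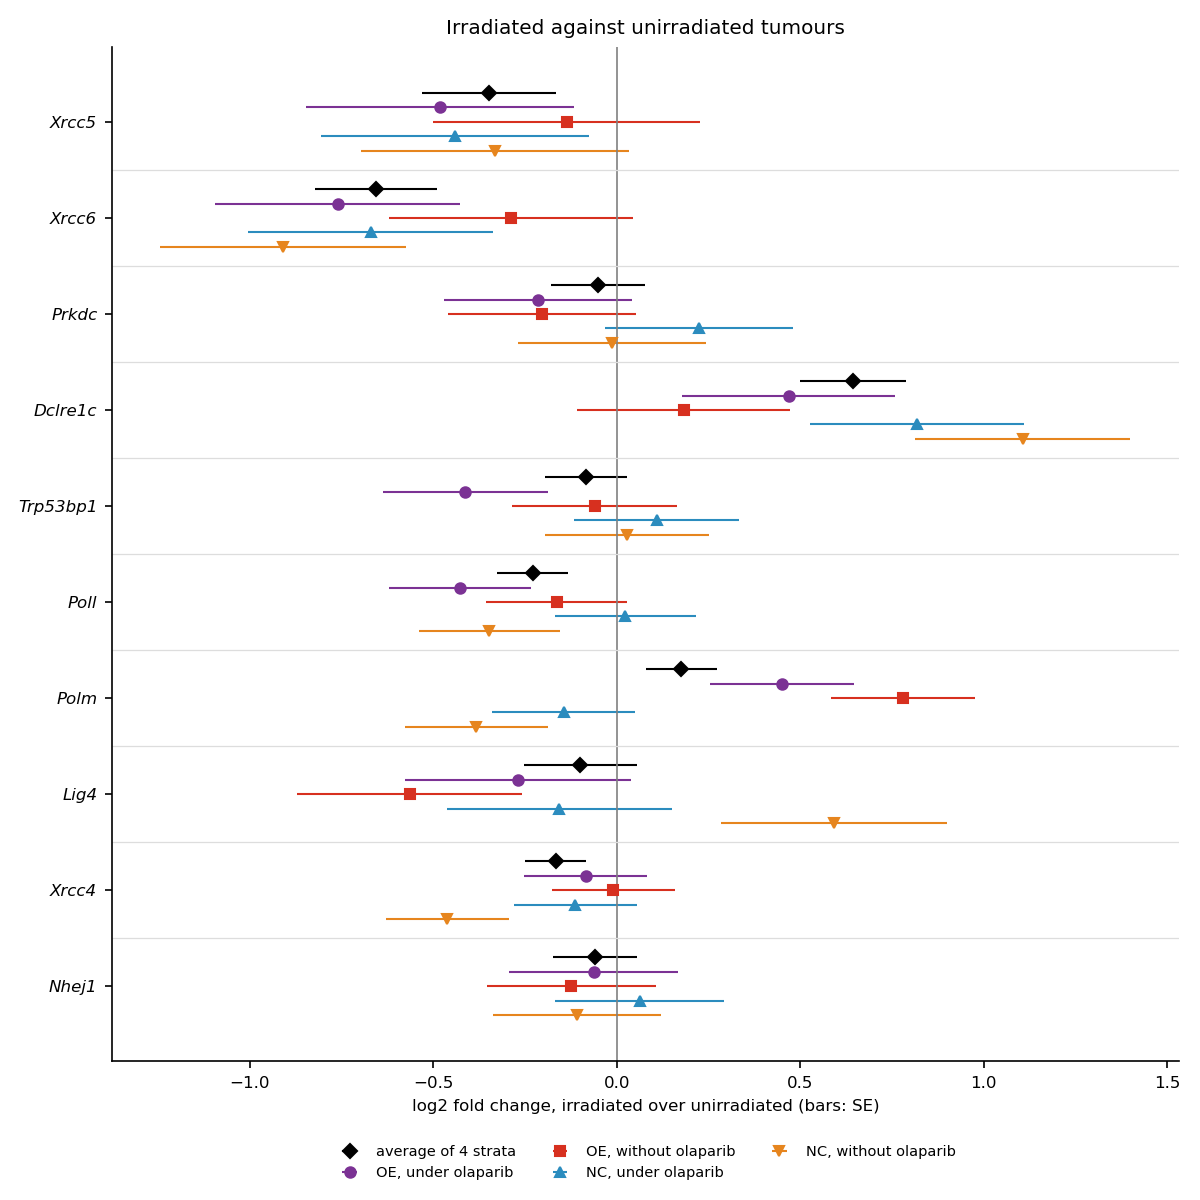
Log2 fold change of irradiated over unirradiated tumours (x axis) for the 10 genes (y axis), as the average of 4 strata (black diamonds) and in each stratum, with bars of 1 SE. Xrcc6 lies left of 0 and Dclre1c right of 0 in every stratum, and Polm lies right of 0 in OE tumours and left of 0 in NC tumours.

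In the remaining strata of the radiation comparison 0 of the 10 genes passed edgeR. In OE without olaparib 1 had an unadjusted p below 0.05 and DESeq2 called 1 (Polm), beside 0.248% of all genes by edgeR. Over all genes of that stratum 2447 had such a p and DESeq2 called 644. In NC under olaparib the members' counts were 1 and 0, beside 1.46% of all genes by edgeR, 3655 genes with such a p and 1428 called by DESeq2. In OE under olaparib they were 3 and 0, beside 6.78%, 4681 and 2404 genes. The radiation effect under olaparib minus that without it passed for 0 of the 10 genes, with 0 at an unadjusted p below 0.05, 0 by DESeq2 and 0% of all genes by edgeR. Over all genes 588 had such a p and DESeq2 called 7. For Dclre1c that difference was 0.00 with a 95% interval of -0.60 to 0.60, and for Xrcc6 it was -0.12 with an interval of -0.81 to 0.58.

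Accessory genes of the same route are described for context. Of 26 tested genes for accessory factors, end processing and the 53BP1 pathway, 14 fell and 0 rose, with 15 at an unadjusted p below 0.05 and a median log2 fold change of -0.27. Over all 16560 genes 2897 fell, 3586 rose and 8056 had such a p. Tdp1, which removes topoisomerase I from DNA ends, fell to 11.7 ± 2.18 CPM in irradiated tumours, against 17.5 ± 4.26 CPM in unirradiated ones (-0.57 ± 0.10, adjusted p = 0.0006). Tdp2, which acts on topoisomerase II adducts, fell to 20.9 ± 3.97 CPM, against 28.2 ± 2.43 CPM (-0.43 ± 0.09, adjusted p = 0.00147). Rnf168, the ubiquitin ligase that writes a histone mark read by 53BP1, fell to 31.4 ± 4.04 CPM, against 42.5 ± 6.34 CPM (-0.43 ± 0.09, adjusted p = 0.00126). Nudt16l1, whose product binds 53BP1, fell by 0.29 ± 0.06 (adjusted p = 0.0015). Here the values stand with SD and n = 12 in each arm.

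The other break repair routes are given for scale, and their difference from the 10 genes was not tested. Among 19 alternative end joining genes, some of which are also in the accessory list, 13 fell and 1 rose, with a median of -0.35. Examples are Parp1, the main target of olaparib (-0.61 ± 0.12, adjusted p = 0.00139), Lig3, the ligase of that route (-0.49 ± 0.09, adjusted p = 0.000892), Mre11a (-0.57 ± 0.11, adjusted p = 0.000844) and Rhno1 (-0.35 ± 0.08, adjusted p = 0.00201). Homologous recombination, which needs a sister chromatid, had 18 of 26 genes lower and 0 higher, with a median of -0.84. Brca2, a tumour suppressor gene of that route, changed by -1.13 ± 0.22 (adjusted p = 0.00109). Blm and Xrcc3 fell by 1.10 and 0.83. Beside these lists, 2897 of all 16560 tested genes fell and 3586 rose, with a median of 0.04.

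The microRNA overexpressed in OE tumours is shown from RefSeq with its seed, bases 2 to 8, in capitals. It lies at chr11:86584120-86584141 (GRCm38.p6, - strand). The matching 7-base site, ATAAGCT, was sought in each gene's longest 3' UTR of the annotation and found in 2 of the 10, once in Lig4 and once in Trp53bp1. The windows below run 30 bases with the site in capitals.
miR-21a-5p: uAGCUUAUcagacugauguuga
Lig4, position 1716 of a 1994-base 3' UTR: tcaaccagaacATAAGCTgctgggtactct
Trp53bp1, position 543 of a 3582-base 3' UTR: ttttctataaaATAAGCTgtcacaactgtt
Neither site is followed by A. Of 14063 tested genes with a 3' UTR, 7.67% held the 7-base site. The median 3' UTR of those 14063 genes was 1143 bases long, shorter than that of Lig4 or Trp53bp1. A site in the letters is not a measured target.

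Neither gene with a site passed the test between OE and NC tumours. Averaged over 4 treatments, OE minus NC was 0.08 ± 0.15 for Lig4 (adjusted p = 0.844, 95% interval -0.24 to 0.40) and 0.07 ± 0.11 for Trp53bp1 (adjusted p = 0.805, 95% interval -0.16 to 0.31). Across all 10 genes 0 passed edgeR in this average, with 2 at an unadjusted p below 0.05 (Dclre1c and Polm) and 0 by DESeq2, beside 0.453% of all genes by edgeR. Over all genes 2565 had such a p and DESeq2 called 628. Dclre1c averaged 25.4 ± 6.09 CPM in OE and 35.2 ± 15.7 CPM in NC tumours (SD, n = 12 each), a log2 fold change of -0.39 ± 0.15 (adjusted p = 0.203). Without NC IR replicate 1 that difference passed (-0.47, adjusted p = 0.0364), as did the one within IR tumours (-1.10, adjusted p = 0.0235). Polm averaged 24.2 ± 6.98 CPM in OE and 27.6 ± 4.31 CPM in NC tumours (-0.22 ± 0.10, adjusted p = 0.285).

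Within single treatments 0 of the 10 genes passed edgeR between OE and NC. The counts at an unadjusted p below 0.05 were 1 in IR+olaparib, 1 in IR, 1 in olaparib and 2 in sham tumours. DESeq2 called 0, 0, 0 and 1 (Polm) in that order, and edgeR called 0%, 0.0845%, 0% and 0% of all genes. Over all genes DESeq2 called 138, 794, 7 and 376, and 1669, 3092, 590 and 2065 had an unadjusted p below 0.05, in the same order. In sham tumours Polm was 20.1, 18.1 and 15.1 CPM in OE and 28.2, 29.3 and 35.5 CPM in NC, with no overlap (-0.80 ± 0.20, adjusted p = 0.0999; DESeq2 adjusted p = 0.00951). Under olaparib alone the OE tumours, at 19.5 to 21.2 CPM, also lay below the NC tumours, at 26.4 to 32.9 CPM (-0.52 ± 0.20, adjusted p = 1). In both irradiated treatments the cell lines overlapped. With groups from the written label, the Polm difference in sham tumours was -0.38 (edgeR adjusted p = 0.655). Lig4 in sham tumours was 15.9, 17.0 and 18.6 CPM in OE and 11.5, 10.5 and 4.37 CPM in NC (0.96 ± 0.31, adjusted p = 0.205). The lowest of these was NC sham replicate 3, and without it the difference was 0.65.

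**Figure D4:**
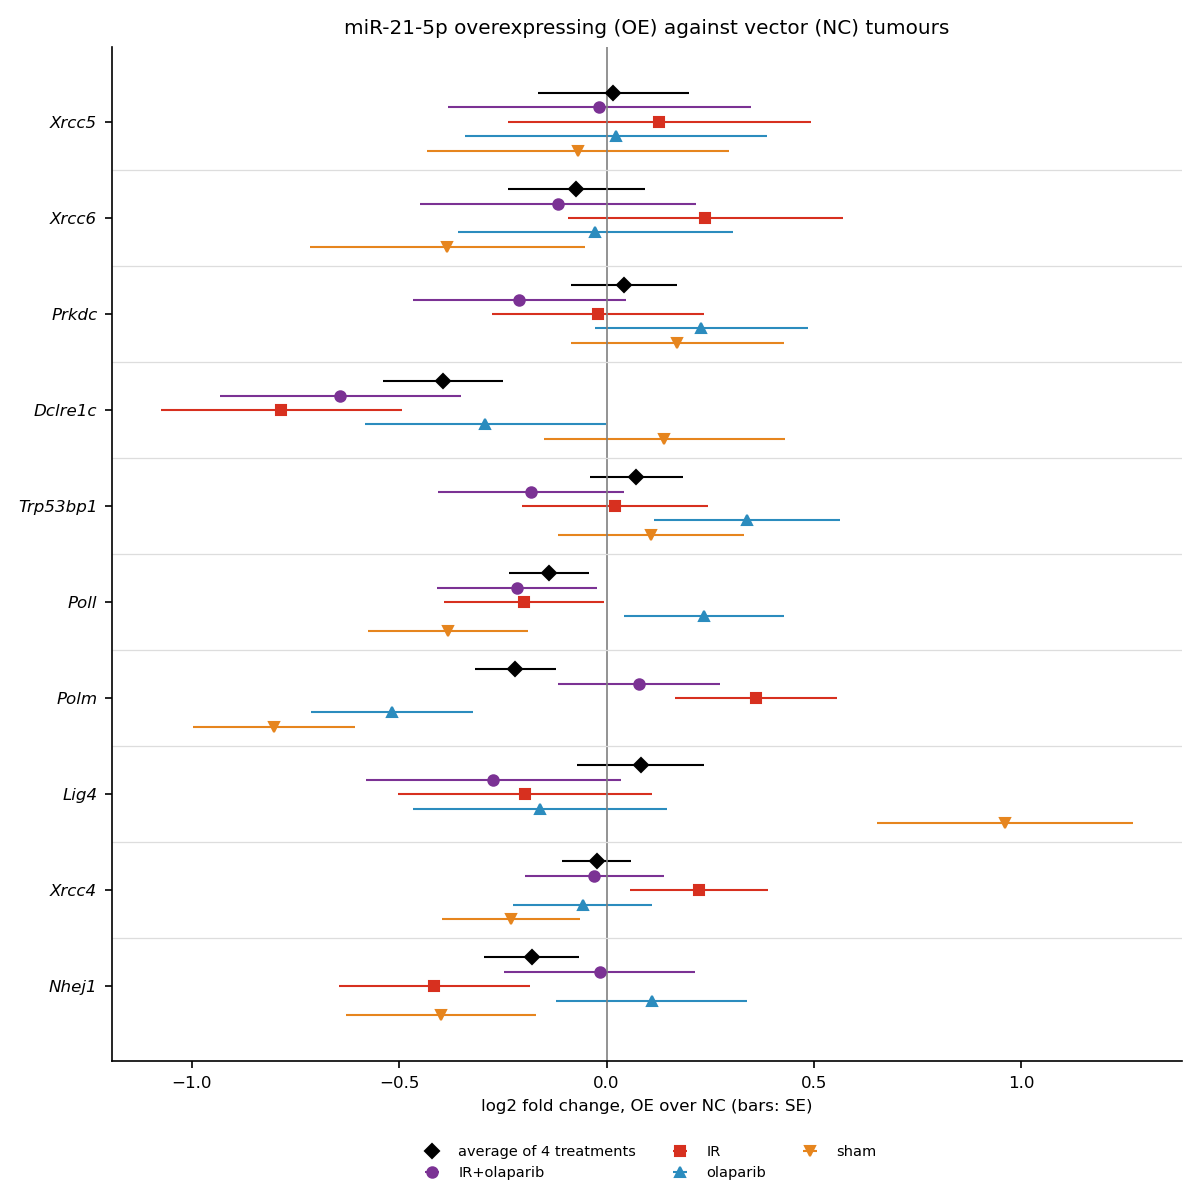
Log2 fold change of OE over NC tumours (x axis) for the 10 genes (y axis), as the average of 4 treatments (black diamonds) and within each treatment, with bars of 1 SE. Polm lies furthest left in sham tumours (-0.80) and right of 0 in IR tumours (0.36), and Lig4 lies furthest right in sham tumours (0.96).

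None of the 10 genes passed between olaparib and no olaparib. On average over 4 strata 0 passed edgeR, with 1 at an unadjusted p below 0.05 (Nhej1) and 0 by DESeq2, beside 0% of all genes by edgeR. Over all genes 1270 had such a p and DESeq2 called 1. Nhej1 averaged 3.74 ± 0.34 CPM with olaparib and 4.55 ± 1.05 CPM without it (SD, n = 12 each), a log2 fold change of -0.27 ± 0.11 (adjusted p = 0.64). In OE tumours 0 genes passed with or without radiation, and 0 had an unadjusted p below 0.05. In NC tumours 0 passed either, with 0 at an unadjusted p below 0.05 after radiation and 3 without it (Lig4, Nhej1 and Poll). DESeq2 called 0 members in all 4 strata, and edgeR called 0% of all genes in each. DESeq2 called 4.36% of all genes in irradiated OE tumours, 3 genes in unirradiated OE, 3 in irradiated NC and 23 in unirradiated NC tumours. In the same order, 2219, 340, 625 and 1602 genes had an unadjusted p below 0.05. The 95% intervals of the average effect stayed within 0.66 of 0 on the log2 scale for every member, the widest lower bound being -0.66 for Xrcc5.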

How the data were processed

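Total RNA of whole tumours was extracted in TRIzol and made into libraries with the VAHTS Universal V5 kit, per the labels' protocols. Per the submitters' processing notes, the authors used fastp, HISAT2 and HTSeq with build mm10, without stated versions, annotation or strand setting. The deposited table holds raw read counts per gene. Each of its columns was matched to 1 tumour by the coded identifier, and every comparison uses that code. The members and gene lists were chosen with earlier results of these data known.

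Tests used edgeR 4.0.16 in R 4.3.3 on all 24 libraries in 8 groups, with TMM scaling, filterByExpr and quasi-likelihood F-tests for 17 comparisons, Benjamini-Hochberg adjusted over all 16560 genes at 0.05. Levels of single genes are TMM-scaled CPM, while marker sums and the medians of keratinocyte and squamous markers are CPM of column totals without TMM. DESeq2 1.42.0, its size factors, no filter, an additive model, fits of only the groups compared, the written labels and leaving out tumours were alternatives. Tumours with agreeing labels were fitted with the additive model. Leaving out 3 libraries of unlike composition was chosen after seeing the data. The scripts were tested on simulated data. Replicate pairs differed beyond sampling noise (lowest chi-square per gene 13.6). Reads lack molecular identifiers, so replicate tumours set the precision. All 10 members are named, with Cdkn1a, Mki67, up to 4 genes per list with the smallest radiation p, and the 3 genes most like a member (mean of at least 1 CPM, pseudocount 0.5). Strands, exon lengths and exon overlaps come from the GENCODE annotation of GRCm38. Gene positions were looked up by Entrez identifier in RefSeq, where 26380 of 27368 identifiers were found. Replicates were numbered in order of deposit. Not every gene that met the rule is printed.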

Additional observations from a re-analysis of the deposited data

Results flagged for a closer look

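In the coded groups Lig4, the ligase IV gene, went opposite ways with olaparib alone in the cell lines. In OE cells it was 11.6, 13.3 and 13.2 CPM in olaparib tumours, against 15.9, 17.0 and 18.6 CPM in sham tumours, so that the log2 fold change was -0.43 with an edgeR adjusted p of 1. In NC cells it was 13.1, 13.2 and 16.4 CPM in olaparib tumours, against 11.5, 10.5 and 4.37 CPM in sham tumours, and here it was 0.69 with an adjusted p of 0.486. Without NC sham replicate 3 (4.37 CPM), in the fit that left out 3 libraries, the NC value was 0.37 with an edgeR adjusted p of 0.809. The tumours did not overlap in either cell line. With groups from the written label the estimates were -0.12 in NC and -0.16 in OE, below 0 in both. The difference between the cell lines was not tested, and the share of all genes with such a pattern was not counted.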

How the results depend on the processing

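No paired analysis was possible because replicate numbers follow the order of deposit and pair no tumours. The averages after radiation of Dclre1c (0.59 to 0.72) and Xrcc6 (-0.77 to -0.58) passed in all 24 fits that left out 1 tumour. DESeq2 size factors changed no call. Causes of the changes below were not tested.

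Groups from the written label gave 1 gene called after radiation and 0 members, 0 in NC without olaparib, and 1 member, Dclre1c, for OE against NC in IR (-1.30, among 2107 genes called) and for olaparib in irradiated NC tumours (-1.11, among 422 genes called). These log2 estimates turned sign with that label. After radiation they were Nhej1 0.038, Polm -0.14, Prkdc 0.10 and Polm in OE without olaparib -0.19. For OE against NC they were Lig4 -0.027 (in sham -0.10), Poll 0.024, Xrcc4 0.088 and Xrcc6 0.24, with the Lig4 interaction at 0.20. For olaparib they were Dclre1c -0.20, Lig4 -0.15 (in unirradiated NC -0.12), Nhej1 0.017, Prkdc -0.082 and Xrcc5 0.075. Only tumours with agreeing labels turned Polm (-0.032) and Prkdc (0.021) after radiation, Xrcc4 (0.066) and Xrcc6 (0.12) for OE against NC, and Dclre1c (-0.19), Lig4 (-0.063), Trp53bp1 (0.15), Xrcc5 (0.091) and Xrcc6 (0.060) for olaparib. Additive factors turned Lig4 for olaparib (-0.013), and no filter turned Xrcc4 for OE against NC (0.0018).

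DESeq2 called 1 member in sham, 1 in the radiation by miR-21 interaction, 2 in NC and 1 in OE after radiation without olaparib, against 0, 0, 1 and 0 by edgeR. Over all genes DESeq2 called 628 for OE against NC and 236 for that interaction, against 75 and 1 by edgeR. Fits of only the 2 groups compared gave 1 member in NC under olaparib, 0 in NC and 2 in OE without it. Leaving out OE IR+olaparib replicate 3, NC IR replicate 3 and NC sham replicate 3, a choice made after seeing the data, gave 1 in the interaction, 0 in NC and 1 in OE without olaparib, and turned Lig4 for olaparib (-0.028), Xrcc4 (0.073) and Xrcc6 (0.0029) for OE against NC.

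Leaving out 1 tumour gave 2 to 5 members called after radiation (5 without OE IR+olaparib replicate 2), 0 to 3 in NC without olaparib (3 without OE IR+olaparib replicate 3), and 0 to 1 in NC under olaparib, in OE with and without olaparib, in the interaction, and for OE against NC on average and in IR. The ranges that crossed 0 for OE against NC were Lig4 -0.01 to 0.16, Prkdc -0.016 to 0.10, Xrcc4 -0.057 to 0.038, Xrcc5 -0.077 to 0.13 and Xrcc6 -0.17 to 0.033. For olaparib they were Lig4 -0.086 to 0.083, Polm -0.028 to 0.074, Prkdc -0.026 to 0.094 and Trp53bp1 -0.094 to 0.024. With 3 tumours a group, single strata have wide intervals.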
